A study of Homo sapiens with 4 samples.

Results

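Aminoacyl-tRNA synthetases join each amino acid to the tRNA that carries it to the ribosome. In human cells most of these enzymes come as separate sets, a cytosolic one and a mitochondrial one encoded by other nuclear genes whose proteins are imported, while GARS and KARS each encode both forms. Several cytosolic enzymes are held together in the multisynthetase complex, and a number of cytosolic synthetase genes are widely described as targets of ATF4, the transcription factor of the amino acid and mitochondrial stress response. The genes described here are 36 of the 26726 listed in an RNA-seq data set of HN12 cells, chosen by name. Of these, 20 have names that do not end in 2 and are called cytosolic, GARS and KARS included, and 16 have names ending in 2 and are called mitochondrial.

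HN12 is an established cell line of human head and neck squamous cell carcinoma (HNSCC). The ATAD3A KO cells were made from it with CRISPR/Cas9, and the controls (WT) were the parental HN12 cells. ATAD3A is an ATPase of the mitochondrial inner membrane. Each group had 2 libraries from independent cultures, and the labels give no drug or other agent for either group. Both were grown in DMEM with serum, penicillin and streptomycin. The study grew KO clones from single cells and does not state from which of them the 2 KO libraries came, so a property of a clone and an effect of the KO cannot be told apart.

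The 4 libraries held between 13569971 and 18943547 counts. Levels are given below in CPM, counts scaled to a common library size with TMM factors,, in the order KO 1, KO 2, WT 1, WT 2, and levels of different genes are compared only in RPKM, which also divides by gene length. ATAD3A itself was at 38.1 and 30.0 CPM in the KO libraries against 116 and 106 CPM in the WT libraries (log2 fold change -1.70 ± 0.091 SE). The 8 squamous epithelial markers were all detected, with a summed level of 6274 to 6371 CPM in KO and 2469 to 2499 CPM in WT libraries. KRT5, KRT14, KRT6A, KRT17 and ITGB4 were called higher in KO cells, and TP63, CDH1 and DSG3 were called lower (log2 fold changes -0.28, -0.24 and -1.12). Markers of leukocytes, endothelium and fibroblasts summed to at most 1.84 CPM per cell type in any library, and 4 of them were not analysed here. The part of the difference in squamous markers in the results below was not tested.

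Of the 36 synthetase genes, 35 had enough counts to be tested. At a threshold of 0.05 for p-values of edgeR's quasi-likelihood test, adjusted by Benjamini-Hochberg over all 15104 tested genes, 11 of the 35 were higher in KO cells and 6 were lower. Together these are 48.6% of the tested synthetase genes, beside 39.5% of all tested genes, of which 20.4% were higher and 19.1% lower. With scaling by library totals in place of TMM, 16.6% of all genes were higher and 23.9% lower. The synthetase genes moved little in size, with a median absolute log2 fold change of 0.17 beside 0.29 for all tested genes. The median WT level of the 36 synthetase genes was 38.4 RPKM, beside 6.35 RPKM for all tested genes. The part of this difference in level in the size of the changes and in the share called was not tested. The median log2 fold change of the 35 genes was 0.01 and that of all genes -0.00421, and 21 of the 35 values were above 0 and 14 below. The KO libraries lay above both WT libraries for 12 synthetase genes (34.1% of all genes did so) and below both for 10 (34% of all genes). Groups did not overlap in either direction for 68.1% of all genes. Each library came from a culture of a single cell line, and its levels are averages over the cells of that culture. A change in all cells and a change in a part of them cannot be told apart by such levels.

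**Figure D1:**
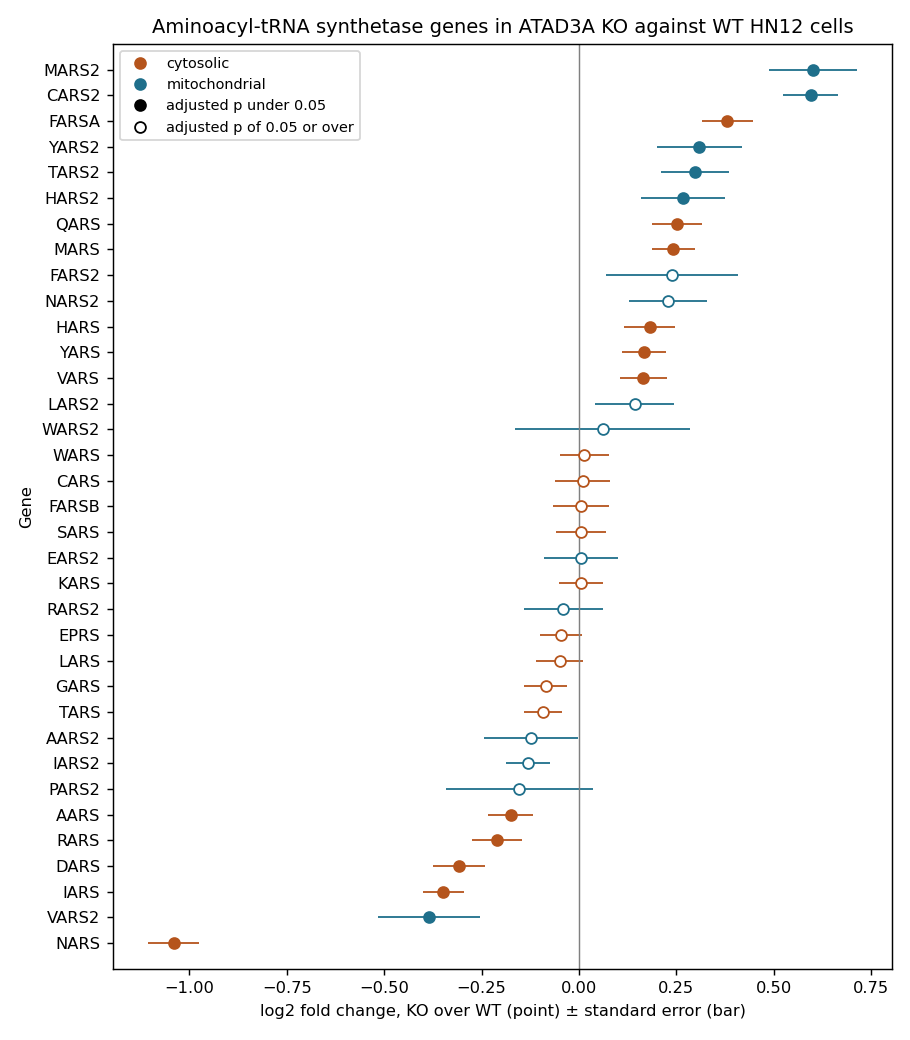
Log2 fold change (KO over WT, horizontal axis) of the 35 tested synthetase genes, ordered by value, with bars of 1 standard error. Orange points are cytosolic and blue points mitochondrial genes, and filled points passed the adjusted p threshold of 0.05. NARS stands alone at the left at -1.04, and MARS2 and CARS2 lie at the right at 0.60 and 0.59.

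The cytosolic and the mitochondrial set were then described side by side. Among the 20 cytosolic genes, 6 were higher in KO cells (FARSA, QARS, MARS, HARS, YARS and VARS), 5 were lower (NARS, IARS, DARS, RARS and AARS) and 9 did not pass the test. Among the 15 tested mitochondrial genes, 5 were higher (MARS2, CARS2, YARS2, TARS2 and HARS2), 1 was lower (VARS2) and 9 did not pass. The median log2 fold change was 0.0050 for the cytosolic genes, turning to -0.065 with library totals and to -0.034 without WT 2. For the mitochondrial genes it was 0.14, with 0.073 under library totals and 0.22 without KO 2. Genes higher in KO cells made up 30% of the cytosolic and 33.3% of the mitochondrial set, beside 20.4% of all tested genes. Lower genes made up 25% and 6.67% (1 gene), beside 19.1% of all tested genes. Some counts depended on a library. Of the 5 lower cytosolic genes, 3 were called without WT 1. Of the 5 higher mitochondrial genes, 3 were called without KO 1, 3 without WT 2 and 2 without WT 1, where NARS2 was called in addition. VARS2 was not called without KO 2 or without WT 2, and without KO 2 IARS2 was called lower.

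Per length, cytosolic synthetase genes were the more highly expressed. Their median level was 62.7 RPKM in WT and 60.5 RPKM in KO cells, beside 9.72 and 11.2 RPKM for the mitochondrial genes. TARS, the threonyl-tRNA synthetase, had the highest mean level in both groups, at 174 RPKM in WT and 156 RPKM in KO cells. GARS and KARS followed, at 118 and 116 RPKM in WT and 106 and 111 RPKM in KO cells. The lowest cytosolic gene was CARS, at 16.5 RPKM in WT and 15.8 RPKM in KO cells. IARS2 was the highest mitochondrial gene, at 65.7 RPKM in WT and 57.2 RPKM in KO cells, a level in the range of the cytosolic set. From WT to KO cells, NARS moved from rank 12 to rank 21 of the 36 genes, IARS from 4 to 9 and FARSA from 14 to 8. The summed RPKM of the cytosolic set was 1279 and 1286 in the KO libraries and 1404 and 1368 in the WT libraries, so the groups did not overlap. The mitochondrial set summed to 238.7 and 227 RPKM in KO and to 221 and 222 RPKM in WT libraries, which gave it 15.7% and 15.0% of all synthetase RPKM in KO and 13.6% and 13.97% in WT libraries. RPKM values are scaled by the library total, which lowers KO values relative to TMM scaling (the median log2 fold change of all genes was -0.07 with library totals).

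**Figure D2:**
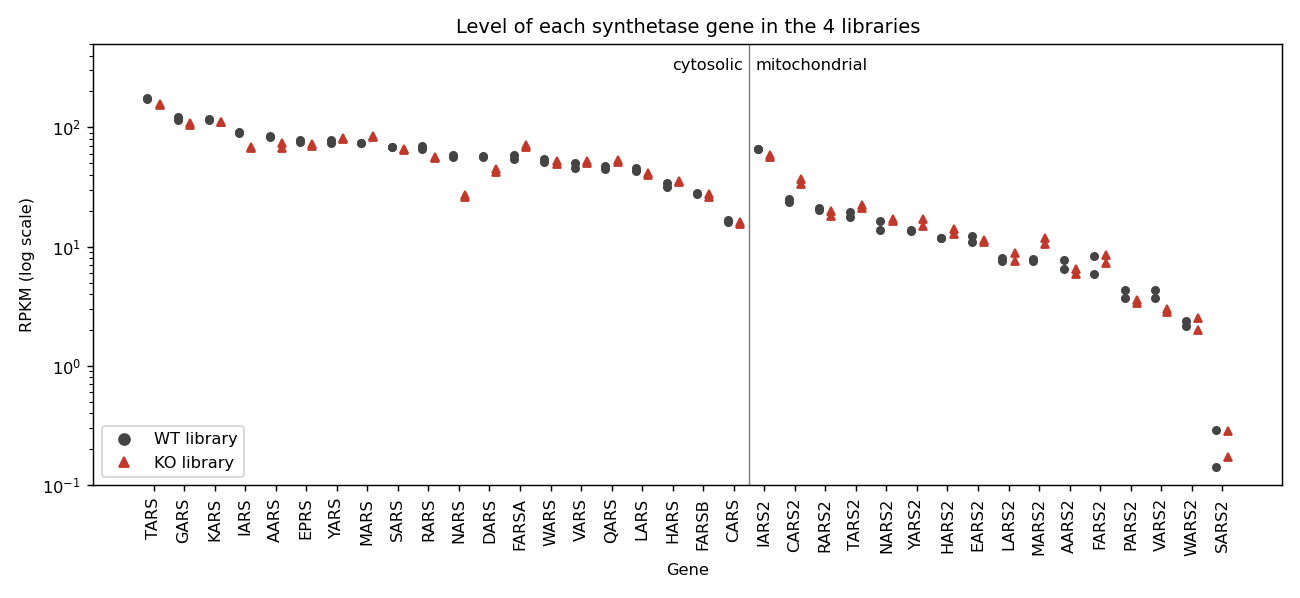
Level of each of the 36 synthetase genes in RPKM (vertical log axis) in the 2 WT (grey circles) and 2 KO libraries (red triangles), cytosolic genes left and mitochondrial genes right, each ordered by the WT mean. Cytosolic genes run from 174 RPKM for TARS to 16.5 RPKM for CARS in WT cells, and NARS is the cytosolic gene whose KO points fall farthest below its WT points.

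The multisynthetase complex holds 8 of the cytosolic genes (EPRS, IARS, LARS, QARS, MARS, KARS, RARS and DARS). Of these, 3 were lower in KO cells (37.5%), 2 were higher (25%) and 3 did not pass the test, with a median log2 fold change of -0.05. Of all tested genes, 19.1% were lower and 20.4% higher. IARS, which charges isoleucine (chromosome 9, 92210207 to 92293756, GRCh38), was at 321 and 329 CPM in the KO and 417 and 410 CPM in the WT libraries. Both KO values lay well below both WT values, and the level fell by 0.35 on the log2 scale (SE 0.053, adjusted p = 1.72e-06). DARS, the aspartyl-tRNA synthetase, was at 103 and 109 CPM in KO and at 131 CPM in each WT library. It fell by 0.31 on the log2 scale (SE 0.066, adjusted p = 0.000247). RARS, which charges arginine, showed a smaller difference of the same sign, with 124 and 122 CPM in KO against 146 and 138 CPM in WT libraries. The log2 fold change of RARS was -0.21 (SE 0.064, adjusted p = 0.00814), and it was not called without WT 1 or with a correction for GC content and length.

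MARS, the methionyl-tRNA synthetase of the complex, moved the other way. It was at 304 and 311 CPM in the KO libraries and at 260 CPM in each WT library, with a log2 fold change of 0.24 (SE 0.055, adjusted p = 0.000492). QARS, which charges glutamine, was at 152 and 144 CPM in KO and 122 and 127 CPM in WT libraries. The groups did not overlap, and the log2 fold change was 0.25 (SE 0.064, adjusted p = 0.00171). QARS was not called without WT 1 or with the GC and length correction. EPRS, which holds the glutamyl and prolyl enzymes in a single protein, had a log2 fold change of -0.05, LARS (leucine) also -0.05, and KARS (lysine) 0.0049, and none of these 3 passed the test. With the GC and length correction LARS was at 0.13 and was called higher. Subunits of the same complex thus had values on both sides of 0, between -0.35 and 0.25. MARS shares 13.3% of its exonic bases with annotated neighbours (ARHGAP9, DDIT3 and MIR6758), mostly on the other strand, and whether reads were counted by strand is not given in the sources used here.

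NARS, the asparaginyl-tRNA synthetase (ENSG00000134440, chromosome 18, 57600656 to 57622213 on the minus strand, GRCh38), showed the largest change of the 35 genes. It was at 86.5 and 83.5 CPM in the KO libraries and at 180 and 170 CPM in the WT libraries. The KO level was 51.4% lower, a log2 fold change of -1.04 (SE 0.065, adjusted p = 1.73e-15). It was the only synthetase gene called lower with a fold under 0.75, as were 10.7% of all tested genes. Genes near NARS had similar values. Of the 195 tested genes on chromosome 18, 181 had a log2 fold change below 0, with a median of -0.76, and NARS was the 50th lowest. Within 2 Mb on either side, 11 of 12 tested neighbours were below 0, with a median of -0.94, and 5 of the 12 had a value at or below that of NARS. The part of the chromosome-wide shift in the NARS value was not tested. Without NARS, which was left out in an analysis added after its value was seen, 4 cytosolic genes were lower and the cytosolic median stayed at 0.0050.

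**Figure D3:**
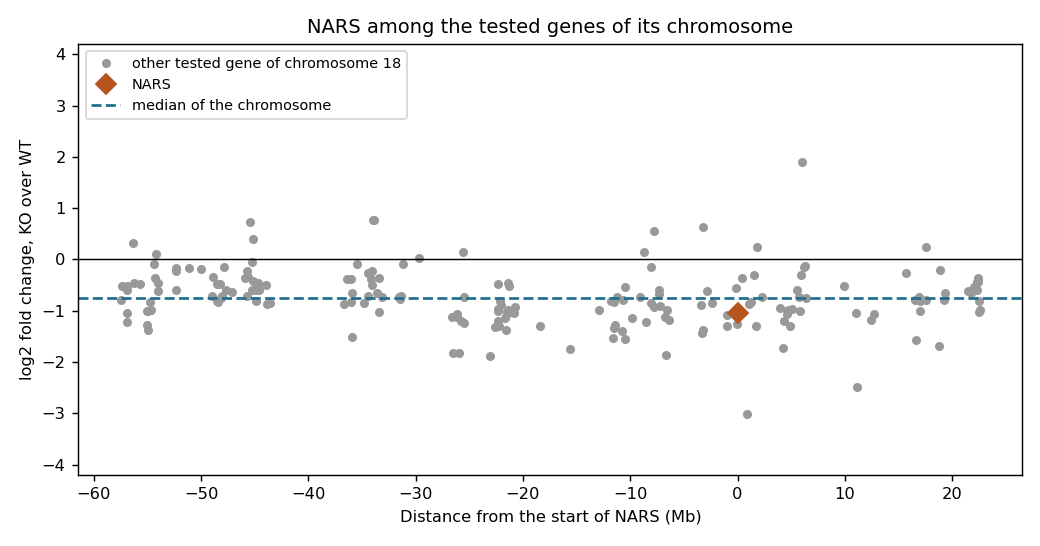
Log2 fold change (KO over WT, vertical axis) of the 195 tested genes of chromosome 18 against their distance from the start of NARS in Mb (horizontal axis). The orange diamond is NARS at -1.04, the dashed line is the chromosome median of -0.76, and 181 of the 195 points lie below 0.

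The other called synthetase genes lay on chromosomes with medians between -0.18 (chromosome 6, VARS and VARS2) and 0.25 (chromosome 19, FARSA). For some of them the tested neighbours within 2 Mb nonetheless had a median close to the gene's own value, and the part of the neighbourhood in these values was not tested. DARS (-0.31) had 9 neighbours with a median of -0.30, AARS (-0.17) had 51 with -0.18, YARS (0.17) had 46 with 0.16 and HARS (0.18) had 58 with 0.18. For further genes the neighbours had a median of the same sign and smaller size. IARS (-0.35) had 18 neighbours with -0.21, FARSA (0.38) had 93 with 0.17 and QARS (0.25) had 82 with 0.14. HARS2 (0.27) had 58 with 0.18 and MARS (0.24) had 78 with 0.05. Here too the part of the neighbourhood was not tested. Others stood apart from their neighbours. RARS (-0.21) had 7 neighbours with a median of 0.12, TARS2 (0.30) had 57 with -0.01 and YARS2 (0.31) had 15 with 0.0044. VARS and VARS2 share chromosome 6 and differed in sign. The neighbours of VARS within 2 Mb (117 tested genes) had a median of -0.19, and those of VARS2 (98 genes) a median of -0.23.

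Among the cytosolic genes outside the complex, 4 were higher (33.3%), 2 lower (16.7%) and 6 did not pass the test, beside 20.4% higher and 19.1% lower of all tested genes. FARSA and FARSB encode the alpha and beta subunits of the phenylalanyl enzyme, which works as a tetramer of both. FARSA (chromosome 19, 12922479 to 12934037, GRCh38) was at 151 and 145 CPM in KO and 118 and 109 CPM in WT libraries. Its log2 fold change of 0.38 (SE 0.065, adjusted p = 1.04e-05) was the largest rise among cytosolic genes. The GC and length correction took it to 0.12, with an adjusted p of 0.126 in edgeR's quasi-likelihood test. FARSB was at 96.1 and 89.7 CPM in KO and 91.8 and 93.4 CPM in WT libraries, and its log2 fold change of 0.01 did not pass the test (adjusted p = 0.964). With the same correction FARSB was at 0.15, so the order of the subunits turned. Without it, the FARSA to FARSB ratio in RPKM was 2.57 and 2.65 in KO and 2.10 and 1.92 in WT libraries. With 2 libraries a group, an exact permutation test of such a ratio cannot go below p = 0.333 (two-sided), so ratios are given here as values only.

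HARS, YARS and VARS, which charge histidine, tyrosine and valine, had smaller positive values. HARS was at 128 and 125.7 CPM in KO and 108 and 116 CPM in WT libraries, with a log2 fold change of 0.18 (SE 0.066, adjusted p = 0.0279). YARS was at 267 and 272 CPM in KO and 248 and 232 CPM in WT libraries, with a log2 fold change of 0.17 (SE 0.057, adjusted p = 0.0178). For VARS the levels were 233 and 220 CPM in KO and 213 and 192 CPM in WT libraries, and the log2 fold change was 0.16 (SE 0.060, adjusted p = 0.0284). In all 3 the groups did not overlap, but each gene was called in only some of 14 alternative analyses (all those tried except the fold thresholds of the paper's methods), losing the call in 6, 5 and 7 of them, and VARS turned to -0.06 with the GC and length correction. AARS, the alanyl-tRNA synthetase, was the second lower gene outside the complex beside NARS. It was at 240 and 265 CPM in KO and 282 and 288 CPM in WT libraries, a log2 fold change of -0.17 (SE 0.057, adjusted p = 0.0140) that was not called without KO 1, without WT 1 or without WT 2. The remaining genes of this group were CARS, FARSB, GARS, SARS, TARS and WARS. Across all 9 cytosolic genes that did not pass, log2 fold changes ran from -0.09 for TARS to 0.01 for WARS, with standard errors of 0.050 to 0.071. GARS and TARS were called lower in 4 and 3 of the 14 alternatives.

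A group of 12 cytosolic genes is described as ATF4 targets (AARS, CARS, EPRS, GARS, IARS, LARS, MARS, NARS, SARS, TARS, WARS and YARS). In KO cells 2 of them were higher, 3 were lower and 7 did not pass the test, and their median log2 fold change was -0.05. The higher and lower genes were 16.7% and 25% of this group, beside 20.4% and 19.1% of all tested genes. Of the other 8 cytosolic genes, 4 were higher (50%), 2 lower (25%) and 2 did not pass, with a median of 0.08. ATF4 and C/EBP proteins bind together at the C/EBP-ATF response element, searched here as TGATGNAA or its reverse complement TTNCATCA in windows from 250 bases before to 50 bases after the RefSeq gene start (GRCh38.p14). The promoter table held 30 of the 36 genes, not AARS2, DARS, LARS, VARS, VARS2 and YARS. A gene can have several windows, and it was counted where any of them held the motif. This was so for 8 of the 30 genes (26.7%), namely 7 of 16 cytosolic (43.8%) and 1 of 14 mitochondrial ones (7.14%), and for 1217 of 27305 genes in all (4.46%). By window, it was in 8 of 39 (20.5%) and in 1270 of 35116 in all (3.62%). The stretches that hold it are shown so that the letters can be set beside the fold changes. Each is 30 bases of the gene's own strand, 5′ to 3′, with the motif in capitals:
AARS, chr16:70289675-70289704, minus strand: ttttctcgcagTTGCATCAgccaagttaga
CARS, chr11:3057407-3057436, minus strand: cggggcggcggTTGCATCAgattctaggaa
GARS, chr7:30594834-30594863, plus strand: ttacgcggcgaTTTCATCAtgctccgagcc
IARS, chr9:92293692-92293721, minus strand: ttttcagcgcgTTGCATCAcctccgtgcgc
MARS, chr12:57488053-57488082, plus strand: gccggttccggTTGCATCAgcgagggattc
NARS, chr18:57621804-57621833, minus strand: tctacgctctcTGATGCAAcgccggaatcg
TARS, chr5:33440956-33440985, plus strand: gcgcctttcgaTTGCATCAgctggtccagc
YARS2, chr12:32756076-32756105, minus strand: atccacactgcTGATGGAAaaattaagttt

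The letters TTGCATCA stood in 5 of the 8 stretches, and NARS held the reverse complement of the same letters. In CARS, GARS, IARS, MARS, NARS and TARS the motif began between positions -33 and 15 relative to the start, while in AARS and YARS2 it began at -187 and -197. Genes that hold the motif did not move together. AARS, IARS and NARS were lower in KO cells, MARS and YARS2 were higher, and CARS, GARS and TARS did not pass the test. Of all tested genes, 20.4% were higher and 19.1% lower. By call, the motif was held by 3 of the 4 lower, 2 of the 9 higher and 3 of the 16 uncalled synthetase genes with a window. Whether the motif has a part in these values was not tested. A match is a run of letters and not a measured binding site.

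MARS2 and CARS2 had the largest positive values of the 35 genes. MARS2, the mitochondrial methionyl-tRNA synthetase (chromosome 2, 197705369 to 197708387, GRCh38), was at 37.0 and 32.4 CPM in KO and 22.5 and 23.4 CPM in WT libraries. Its level was 51.6% higher, a log2 fold change of 0.60 (SE 0.11, adjusted p = 4.81e-05). CARS2, the mitochondrial enzyme for cysteine (chromosome 13, 110641412 to 110713603, GRCh38), was at 132 and 121 CPM in KO and 82.3 and 85.6 CPM in WT libraries. Its level was 51.0% higher, with a log2 fold change of 0.59 (SE 0.070, adjusted p = 1.07e-08). Both genes kept their call in all 14 alternative analyses, as did DARS, IARS, MARS and NARS. With the fold thresholds of the paper's methods added, DARS, IARS and MARS were no longer called. The tested neighbours within 2 Mb had medians of -0.05 for MARS2 (12 genes) and 0.10 for CARS2 (15 genes). FARSA, CARS2 and MARS2 were the synthetase genes called higher and also past the upper fold threshold of the paper's methods, as were 15.4% of all genes.

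YARS2, TARS2 and HARS2, the mitochondrial enzymes for tyrosine, threonine and histidine, rose less. TARS2 was at 62.8 and 59.1 CPM in KO and 47.1 and 52.1 CPM in WT libraries, with a log2 fold change of 0.30 (SE 0.088, adjusted p = 0.00621). YARS2 was at 37.5 and 32.4 CPM in KO and 28.5 and 28.0 CPM in WT libraries, with a log2 fold change of 0.31 (SE 0.11, adjusted p = 0.0221). HARS2 was at 36.1 and 32.4 CPM in KO and at 28.5 CPM in each WT library, with a log2 fold change of 0.27 (SE 0.11, adjusted p = 0.0476). The groups did not overlap in any of the 3, but HARS2 lost its call in 10 of the 14 alternative analyses, YARS2 in 8 and TARS2 in 4. VARS2, the mitochondrial valyl-tRNA synthetase, was the only mitochondrial gene called lower. It was at 18.7 and 17.6 CPM in KO and 22.0 and 25.5 CPM in WT libraries, a log2 fold change of -0.39 (SE 0.13, adjusted p = 0.0169). VARS2 shares 22.0% of its exonic bases with GTF2H4 on the same strand, so its counts are uncertain, and its call was lost in 5 of the 14 alternatives.

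The 9 mitochondrial genes that did not pass the test were AARS2, EARS2, FARS2, IARS2, LARS2, NARS2, PARS2, RARS2 and WARS2, with log2 fold changes from -0.15 for PARS2 to 0.24 for FARS2. Their standard errors ran from 0.057 to 0.22, so several were measured less precisely than the cytosolic genes. IARS2 was at 205 and 212 CPM in KO and 229 and 228 CPM in WT libraries, with a log2 fold change of -0.13 just short of the threshold (adjusted p = 0.0672). It was called lower with library totals, on both RPKM scales and without KO 2. NARS2 was at 44.2 and 42.4 CPM in KO and 40.3 and 33.6 CPM in WT libraries, with a log2 fold change of 0.23 (adjusted p = 0.0708). SARS2, the mitochondrial seryl-tRNA synthetase, had only 11, 6, 9 and 4 counts in KO 1, KO 2, WT 1 and WT 2 and was not tested. It shares 46.2% of its exonic bases with AC011455.2 on the same strand and also overlaps MRPS12 on the other strand, and reads in shared bases may not have been assigned to it.

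Genes for the same amino acid were set side by side in 17 pairs of a cytosolic and a mitochondrial gene, 16 of which could be compared. The mitochondrial gene had the higher log2 fold change in 13 pairs and the lower in 3 (EPRS with PARS2, FARSA with FARS2 and VARS with VARS2), with a median difference of 0.16. Without KO 1 it was the higher in 10 pairs and the lower in 6 (median difference 0.063), and with the GC and length correction the higher in 8 and the lower in 8 (median 0.0565). EPRS and FARS2 each stand in more than 1 pair. The asparagine pair differed most, with NARS to NARS2 ratios in RPKM of 1.59 and 1.60 in KO and 3.62 and 4.12 in WT libraries. For cysteine the mitochondrial gene was the higher in every library, with CARS to CARS2 ratios of 0.436 and 0.465 in KO and 0.707 and 0.643 in WT libraries. The MARS to MARS2 ratio was 6.90 and 8.09 in KO and 9.76 and 9.33 in WT libraries, although both genes rose. For valine the order was turned, with VARS to VARS2 ratios of 17.5 and 17.6 in KO and 13.6 and 10.5 in WT libraries. Over the 17 pairs the ratio was lower in both KO libraries than in both WT libraries in 7, higher in 2 and overlapping in 8. Levels of single genes did not overlap between the groups for 68.1% of all tested genes, and no such share was computed for ratios.

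**Figure D4:**
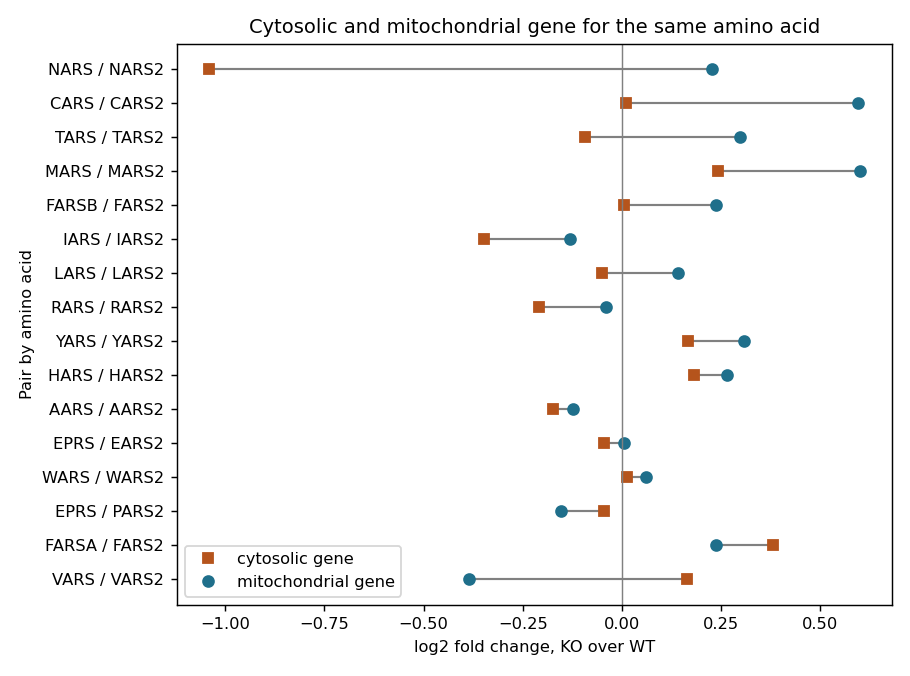
Log2 fold change (KO over WT, horizontal axis) of the cytosolic (orange square) and mitochondrial gene (blue circle) for the same amino acid in the 16 tested pairs, joined by a line. The mitochondrial gene lies to the right in 13 pairs (10 without KO 1 and 8 with the GC and length correction), and the widest gap is that of NARS and NARS2.

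HARS and HARS2 lie head to head on chromosome 5, with 84 bases between their RefSeq starts, HARS on the minus and HARS2 on the plus strand. Both were higher in KO cells, by 0.18 and 0.27 on the log2 scale, and their RPKM ratio overlapped between the groups (2.51 and 2.75 in KO, 2.68 and 2.89 in WT libraries). HARS2 shares 15.8% of its exonic bases with HARS and ZMAT2 when both strands are counted. The bases between the starts are printed because they separate 2 synthetase genes with the same call. They are given on the plus strand of GRCh38.p14, 5′ to 3′, with each CCGGAAGT (the core bound by ETS factors) or its reverse complement ACTTCCGG in capitals:
HARS/HARS2, chr5:140691371-140691454, plus strand: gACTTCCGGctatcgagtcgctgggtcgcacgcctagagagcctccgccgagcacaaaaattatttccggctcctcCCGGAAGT
This motif was chosen after the sequence was seen. It had 2 matches between the starts, and the windows of 8 of 30 synthetase genes and of 1351 of 27305 genes (4.95%) held it.

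GC content differed between the called groups. It was taken from the longest annotated transcript of each gene. Its median was 54.6% in the 11 higher genes, 43.9% in the 6 lower genes and 47.6% in the 18 without a call. Across the 20 cytosolic genes log2 fold change and GC content had a Pearson r of 0.566 and a Spearman rho of 0.704, and across the 15 mitochondrial genes -0.138 and -0.096. These values describe genes measured in the same 4 libraries, which are not independent replicates. With a correction for GC content and length, 8 of the 17 called genes lost their call, while LARS (0.13, adjusted p = 0.0458) and SARS (-0.14, adjusted p = 0.048) turned in sign and passed the threshold of the same quasi-likelihood test.

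Genes that work beside the synthetases were described from a list of which 20 were analysed, and all of these were tested. Of the 20, 9 were higher in KO cells, 3 lower and 8 did not pass, with a median log2 fold change of 0.09. The higher and lower genes were 45% and 15% of this list, beside 20.4% and 19.1% of all tested genes. TARSL2, a further threonyl-tRNA synthetase gene, was at 27.7 and 26.6 CPM in KO and 14.9 and 14.5 CPM in WT libraries, a log2 fold change of 0.89 (SE 0.13, adjusted p = 7.12e-07). SEPSECS, which makes selenocysteine on its tRNA, was at 7.65 and 9.94 CPM in KO and 17.3 and 13.8 CPM in WT libraries, a log2 fold change of -0.83 (SE 0.17, adjusted p = 0.000186). Of the 4 listed genes of the mitochondrial amidotransferase and of formylation, 2 rose. GATC, a subunit of the amidotransferase that completes glutaminyl-tRNA, had a log2 fold change of 0.48 (SE 0.13, adjusted p = 0.00364). MTFMT, which formylates the mitochondrial initiator tRNA that MARS2 charges, had one of 0.47 (SE 0.14, adjusted p = 0.00858). The other amidotransferase subunits, QRSL1 (-0.18) and GATB (0.09, listed as PET112), did not pass the test. TRNT1, which adds the CCA end that synthetases need, and DTD1, which removes D-amino acids from tRNA, rose by 0.44 and 0.43 (adjusted p = 0.00694 and 0.000304).

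Some further genes of this list were singled out after their values were seen. AIMP2, a scaffold protein of the multisynthetase complex, was 0.40 higher on the log2 scale (adjusted p = 0.000739), whereas the scaffold genes AIMP1 and EEF1E1 had -0.05 and 0.02 and did not pass the test. The carriers of charged tRNA rose in both compartments, EEF1A1 in the cytosol by 0.36 (adjusted p = 4.15e-10) and TUFM in mitochondria by 0.37 (adjusted p = 8.21e-07). XPOT, which exports tRNA from the nucleus, and EIF2AK4, the kinase GCN2 that senses uncharged tRNA, both fell by 0.25 (adjusted p = 0.000447 and 0.00307). GCN1, the partner of GCN2 in this sensing (listed as GCN1L1), rose by 0.15 (adjusted p = 0.0298). With the GC and length correction XPOT was at -0.029, AIMP2 at 0.19 and GCN1 at 0.11, and all of these lost their call.

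ATF4 programme genes outside the synthetases gave a mixed picture as well. Of 24 listed genes 23 were tested (NUPR1 was not), and 6 were higher, 4 lower and 13 did not pass, with a median log2 fold change of 0.11. The higher and lower genes were 26.1% and 17.4% of those tested, close to the 20.4% and 19.1% of all tested genes. ATF4 mRNA was at 531 and 496 CPM in KO and 471 and 483 CPM in WT libraries, and its log2 fold change of 0.11 did not pass the test (adjusted p = 0.106). ASNS, asparagine synthetase and a much used ATF4 target, was at 93.5 and 85.1 CPM in KO and 88.7 and 85.9 CPM in WT libraries, with 0.03 (adjusted p = 0.767). CEBPB, a transcription factor, rose by 0.66 (SE 0.068, adjusted p = 5.43e-10), PPP1R15A, which directs the phosphatase of eIF2α, by 0.59 (SE 0.075, adjusted p = 5.79e-08), and SESN2, a stress sensor, by 0.54 (SE 0.087, adjusted p = 4.40e-06). PYCR1, an enzyme of proline synthesis, rose by 0.51 (SE 0.11, adjusted p = 0.000225) and SLC3A2, the heavy chain of amino acid transporters, by 0.29 (adjusted p = 5.33e-06). The remaining higher gene, SHMT2, rose by 0.28 (adjusted p = 8.76e-05 in the same quasi-likelihood test). ALDH1L2, a mitochondrial folate enzyme, was at 0.380 and 1.04 CPM in KO and 14.2 and 12.4 CPM in WT libraries (log2 fold change -4.25, SE 0.30, adjusted p = 5.23e-14). The other lower genes, SLC7A11, PSAT1 and ALDH18A1, fell by 0.27, 0.19 and 0.16 (adjusted p = 0.00464, 0.0163 and 0.0476). With the GC and length correction SLC7A11 turned to 0.075, PSAT1 was at -0.11 and PYCR1 at 0.21, and all of these lost their call. GDF15 (-0.53) and SLC7A5 (-0.15), without a call before, were then called lower. The 4 lower genes of the list became 1 without KO 1 or without WT 2, and 2 without WT 1.

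**Figure D5:**
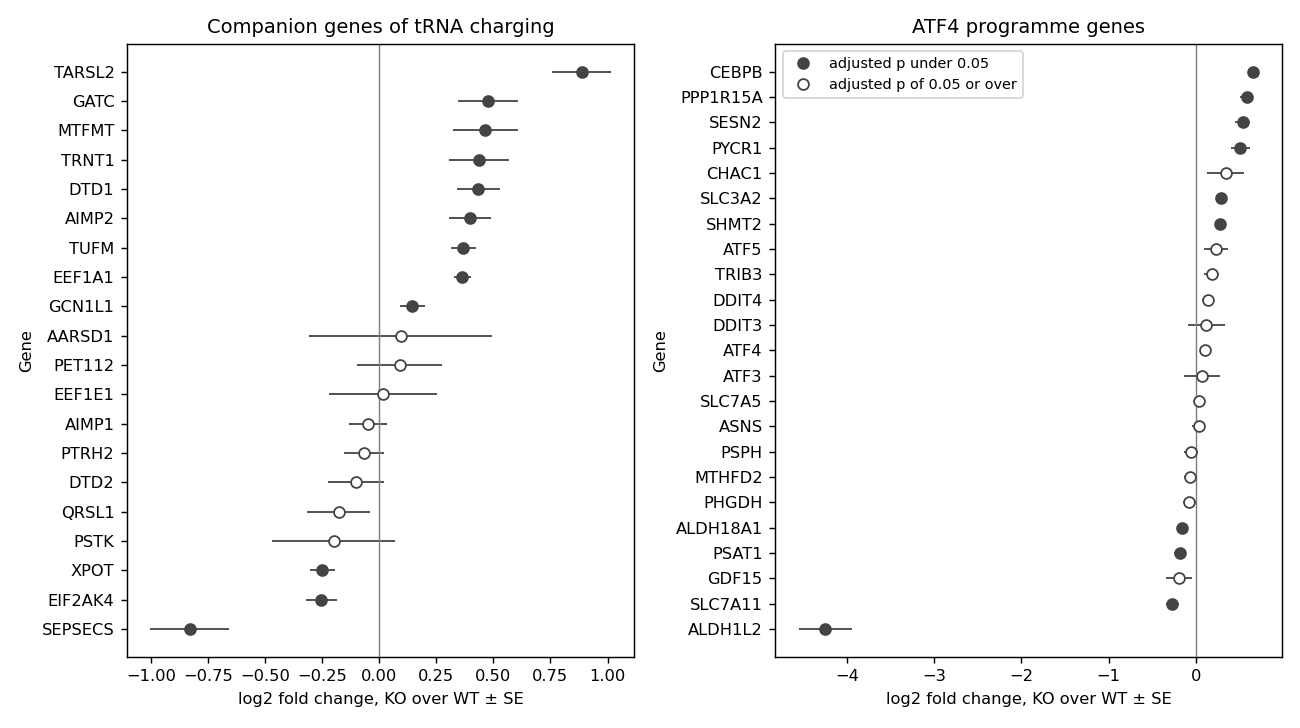
Log2 fold change (KO over WT, horizontal axis) with bars of 1 standard error for 20 companion genes of tRNA charging (left) and 23 tested ATF4 programme genes (right). Filled points passed the adjusted p threshold of 0.05, and the panels have different scales. TARSL2 (0.89) and SEPSECS (-0.83) lie at the ends of the left panel, and ALDH1L2 (-4.25) lies far from the other genes of the right panel.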

How the data were processed

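RNA of 2 ATAD3A KO and 2 parental (WT) HN12 cultures was sequenced as 50-nt reads, and the grouping follows the sample labels. The authors deposited raw read counts per gene for 26726 genes and RPKM values, which equal the count divided by 1 length per gene and the library total (spread of that length over libraries at most 1.82e-05%). The submitters' processing notes name CASAVA, STAR 2.5, HTSeq, edgeR 3.16.5, DESeq2 2 and hg19, without roles. The annotation and the use of strand are not given in the sources used here. Labels and paper name slightly different growth media.

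The counts were analysed with edgeR 4.0.16 in R 4.3.3 (filterByExpr, TMM, glmQLFit and glmQLFTest, Benjamini-Hochberg adjustment over all tested genes, two-sided). The filter left 15104 genes and removed 11622. The paper's methods name DESeq, whose count model edgeR replaces here. TMM factors lay between 0.975 and 1.03, a count of 3 equals 0.162 to 0.215 CPM, and the biological coefficient of variation was 5.88%. Standard errors were derived from each log2 fold change and its F statistic. Alternatives were edgeR's exact test, DESeq2 1.42.0, a replicate block, library totals or size factors of DESeq2 in place of TMM, no filter, a minimum of 10 counts per library, limma 3.58.1 on log2(RPKM + 1) and log2(RPKM + 0.1), a GC and length correction (splines with 4 degrees of freedom), the thresholds of the paper's methods (unadjusted p under 0.05 with a fold over 1.25 or under 0.75) and leaving out each library. The 2 libraries of a group differed by more than sampling noise (chi-square per degree of freedom 3.48 for KO and 2.87 for WT).

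GENCODE release 29 (GRCh38), matched on Ensembl identifiers, gave gene positions, shared exonic bases and the GC content of 97.2% of tested genes, and RefSeq on GRCh38.p14 gave the promoter windows. A gene of the planned list of companion genes is not reported here. The genes and lists were chosen with earlier results of these data known. Every synthetase gene is named. Values per library are given for those past the threshold. From the other 2 lists, fold changes are given for up to 6 called genes with the largest absolute log2 fold change, and for further genes named above. In these lists only TARSL2, SEPSECS, ALDH1L2, ATF4 and ASNS have values per library.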

Additional observations from a re-analysis of the deposited data

How the results depend on the processing

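Over 35 synthetase genes and 14 alternatives, 378 of 490 results kept their direction and their side of the threshold, 52 lost a call and 13 gained one in the same direction, and 47 turned in sign. Of these 47, 44 lay in 11 genes and were called neither before nor after. The other 3 were LARS (0.13), SARS (-0.14) and VARS (-0.06) with the GC and length correction, which also turned SLC7A11 (0.075) and SLC7A5 (-0.15). The cause was not tested. The count of 6 higher cytosolic genes became 3 with library totals, either RPKM scale or the GC and length correction (there 2 of the 6 and LARS), and 1 with the thresholds of the paper's methods. The count of 5 lower ones became 1 with those thresholds. It was 7 with library totals or either RPKM scale, where GARS and TARS were called too. It was 6 with the GC and length correction (there 4 of the 5, GARS and SARS). The count of 5 higher mitochondrial genes became 3 with DESeq2, library totals or the GC and length correction (there 2 of the 5 and NARS2), and 2 with either RPKM scale or the paper's thresholds. The count of 1 lower mitochondrial gene became 0 with DESeq2 (2 at an unadjusted p under 0.05) and with the paper's thresholds, and 2 with library totals, where IARS2 was called too. Lower companion genes numbered 2 with the GC and length correction and 1 with the paper's thresholds, which also left 1 lower ATF4 programme gene and 1847 lower genes in all.

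The cytosolic median became -0.065 with library totals, -0.064 on log2(RPKM + 1), -0.065 on log2(RPKM + 0.1) and -0.026 with the GC and length correction, and the mitochondrial median 0.064 on log2(RPKM + 1). Without 1 library at a time, a single sample being assumed to vary like the other group, higher cytosolic genes numbered 4 to 6 and lower ones 3 to 5, higher mitochondrial genes 3 to 5 and lower ones 0 to 1. Without WT 2 the count of lower mitochondrial genes was 0 in edgeR's test, also at an unadjusted p under 0.05. Higher companion genes numbered 6 to 8 and lower ones 2 to 3, and higher ATF4 programme genes 6 to 7 and lower ones 1 to 4. All higher genes numbered 2403 to 2915 and all lower genes 2013 to 2751. The cytosolic median ran from -0.034 (without WT 2) to 0.012, the mitochondrial from 0.10 to 0.22 (without KO 2), and their difference from 0.14 to 0.22 (without KO 2).

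The labels do not say that replicate numbers pair the cultures, and deviations of same-numbered libraries had a correlation of -0.057. With the number as a block, 3010 genes were higher and 2810 lower, and of the synthetase genes HARS2 alone lost its call. With 2 libraries a group, small changes of low genes such as WARS2 and PARS2 could not be resolved, and SARS2 could not be tested.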
